A study of Homo sapiens with 9 samples.

Results

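The genes described here are MYC, its dimerisation partner MAX and their antagonists, and the nucleolar, ribosome assembly, RNA polymerase I, nucleotide, polyamine, translation and iron uptake genes that MYC is known to activate. They were chosen by symbol from what is known of the pathway, and 46 of the 38478 gene rows of the table carry one of the symbols. In 45 of the 46 the counts passed the filter on low counts, which 13262 genes passed in all. The exception was EIF4A1, listed at 0 in every library.

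Poly(A)-selected RNA was sequenced from OPM-1 cells, a human line established from plasma cell myeloma, grown in RPMI medium with serum and labelled WT in genotype. One group expressed an RNA against luciferase (gLuc, the control), one an RNA against FBXW7 (gFBXW7), and one RNAs against FBXW7 and KMT2D (gFBXW7_gKMT2D). All 9 libraries therefore come from cells of 1 line that stably carry a targeting RNA, with 3 independent biological replicates per group per the series' design text. Neither the way these RNAs act nor whether the cells are clones is stated in the sources used here, and no group carried the KMT2D RNA alone. The libraries held 16337492 to 27076242 counts. Mean levels in counts scaled to the library total (CPM), in the order gLuc, gFBXW7, gFBXW7_gKMT2D, were 50.2, 54.5 and 54.3 for FBXW7 and 67.9, 57.7 and 61.2 for KMT2D. Neither transcript passed the test in any comparison, and a count over a whole gene does not show a small change in its sequence. Marker sums used the library total without that correction. The 10 plasma cell markers summed to 12233 to 15159 CPM, and the markers of T and NK, myeloid and stromal cells to at most 0.419 CPM in any library. The 5 erythroid markers summed to 23.3 to 42.5 CPM, nearly all of it from HBB, the 1 of them that passed the filter on low counts. Transcripts of mitochondrial DNA took 0.638% to 3.67% of the counts and ribosomal protein transcripts 5.09% to 11.4%, with the highest ribosomal protein share in gFBXW7_gKMT2D library 3.

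MYC is a transcription factor that binds DNA as a dimer with MAX at the E-box, the sequence CACGTG. The MXD proteins, MXI1 and MNT compete for MAX and repress at the same sites, and MLX is a related partner. FBXW7 is the substrate receptor of a ubiquitin ligase that recognises phosphorylated MYC protein and marks it for degradation, and KMT2D is a histone methyltransferase of enhancers. MYC drives growth largely by raising ribosome production: synthesis of ribosomal RNA by RNA polymerase I, its processing and modification in the nucleolus, and assembly of the subunits. MYC is commonly rearranged in myeloma. RNA sequencing reports transcripts and does not report the amount of MYC protein.

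The E-box is the sequence that MYC and MAX bind, so the promoters of the genes are shown before their levels. RefSeq promoter windows (GRCh38.p14, 250 bases before to 50 after the start site) were found for 39 of the 46 genes, and MYC, NOLC1, NOP58, BOP1, RRS1, RRP12 and IMPDH2 had no entry. The first listed window of each gene was used. Bases after the start site were found in a GENCODE transcript of the gene for 33 of the 39. The PAICS window (chr4:56410257-56410556) lay upstream of the GENCODE start of that gene at 56435741. The motif CACGTG, which reads the same on both strands, occurred in 14 of the 39 windows (35.9%). It occurred in 964 of 9370 windows of the tested genes (10.3%) and in 2030 of all 27305 windows (7.43%). Without MYC's partners and antagonists the count was 11 of 32 (34.4%). The genes had been collected as MYC targets, so these shares describe the collection and were not tested. In FBL, RRP9, WDR43, UTP20, PES1, MRTO4, NOP2 and BYSL the motif began between 10 bases before and 35 bases after the start site. It began in that stretch in 149 of the 9370 windows (1.59%). The ends of the stretch are the positions in UTP20 and NOP2, so it was drawn from these members. The 1.59% is therefore a description and no comparison with them. The first 6 of these genes are printed from 90 bases before to 30 bases after the start, 5′ to 3′ on the gene's strand, with CACGTG in capitals.
FBL, chr19:39846350-39846469, minus strand: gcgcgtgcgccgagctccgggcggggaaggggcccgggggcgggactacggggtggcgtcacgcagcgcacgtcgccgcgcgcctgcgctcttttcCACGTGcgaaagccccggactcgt
RRP9, chr3:51941875-51941994, minus strand: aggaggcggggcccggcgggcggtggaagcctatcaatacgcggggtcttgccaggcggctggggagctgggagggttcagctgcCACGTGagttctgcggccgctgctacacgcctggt
WDR43, chr2:28894577-28894696, plus strand: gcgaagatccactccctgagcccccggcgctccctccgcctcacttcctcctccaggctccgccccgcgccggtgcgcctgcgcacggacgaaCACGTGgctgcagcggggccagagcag
UTP20, chr12:101280015-101280134, plus strand: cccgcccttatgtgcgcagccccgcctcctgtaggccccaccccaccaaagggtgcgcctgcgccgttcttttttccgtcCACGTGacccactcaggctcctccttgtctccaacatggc
PES1, chr22:30591881-30592000, minus strand: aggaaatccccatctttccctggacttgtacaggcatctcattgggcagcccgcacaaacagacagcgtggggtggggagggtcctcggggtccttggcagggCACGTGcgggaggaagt
MRTO4, chr1:19251715-19251834, plus strand: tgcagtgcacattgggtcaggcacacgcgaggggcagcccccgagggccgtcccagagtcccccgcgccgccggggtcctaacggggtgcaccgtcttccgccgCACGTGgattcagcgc

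EIF4E, which encodes the cap-binding protein, was the only member with 2 motifs in its window, beginning 225 and 72 bases before the start. It is printed from 250 bases before the start so that both can be seen. NCL and UBTF are printed beside it because their levels, described below, stood apart between groups, and their windows held no CACGTG.
EIF4E, chr4:98929104-98929383, minus strand: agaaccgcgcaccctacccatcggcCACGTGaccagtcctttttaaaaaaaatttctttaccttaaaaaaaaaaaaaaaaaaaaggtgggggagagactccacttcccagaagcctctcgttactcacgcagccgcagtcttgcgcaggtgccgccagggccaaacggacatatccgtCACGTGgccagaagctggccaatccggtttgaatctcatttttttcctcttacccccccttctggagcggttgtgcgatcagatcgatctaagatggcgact
NCL, chr2:231464455-231464574, minus strand: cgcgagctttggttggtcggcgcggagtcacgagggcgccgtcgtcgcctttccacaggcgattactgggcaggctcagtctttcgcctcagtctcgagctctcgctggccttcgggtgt
UBTF, chr17:44220853-44220972, minus strand: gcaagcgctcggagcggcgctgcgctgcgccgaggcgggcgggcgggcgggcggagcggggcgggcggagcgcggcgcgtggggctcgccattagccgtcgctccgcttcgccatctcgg
The remaining members with the motif were MNT, MLX, MXD4, SRM and PPAT. A match shows that the letters are present and says nothing of binding, and no match says only that these letters are not in the window.

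The levels were then compared between the groups with edgeR's quasi-likelihood test, fitted to all 9 libraries with Benjamini-Hochberg adjustment over the 13262 genes. The question of gFBXW7 against gLuc is what the RNA against FBXW7 changed. None of the 45 tested members was called at an adjusted p under 0.05, where the background was 0% of all tested genes, and none had an unadjusted p under 0.05 (1.58% of all genes). In this comparison 30 members had a fold change above 0 and 15 below, with a median log2 fold change of 0.11, beside 49.3% above 0 and a median of -0.00 over all genes. The size of this median rested on single control libraries: it was 0.020 without gLuc library 3 and 0.20 without gLuc library 1. In the latter fit 3 members were higher at an unadjusted p under 0.05 and none was called. The share of all genes under 0.05 was not counted in fits with a library left out. Member counts from those fits therefore have no background beside them. With 1 surrogate variable the median member was at 0.025. MYC was the 1 member whose 3 libraries lay apart from the others, on the low side (background 4.49% lower, 4.37% higher and 8.86% either way).

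In gFBXW7_gKMT2D against gFBXW7, which asks what the added RNA against KMT2D changed, no member was called (background 0.0603%). The unadjusted p was under 0.05 for 2 members of 45, beside 4.22% of all genes: MYC, higher (background 2.3%), and UBTF, lower (background 1.92%). The libraries lay apart for 1 member on the high side, MYC (background 4.35%), and for 2 on the low side, NCL and UBTF (background 5.2%), together 3 members beside 9.55% of all genes. These counts were near the background. Here 21 members lay above 0 and 24 below, with a median of -0.01, beside 54.6% above 0 and a median of 0.02 over all genes. Without gFBXW7_gKMT2D library 3 the median was -0.11, with 17 members above 0 and 28 below. MYC was then higher and EIF4E, GAR1, GNL3, NCL, NOP58 and RRS1 lower at an unadjusted p under 0.05, and none was called. The share of all genes under 0.05 was not counted in this fit, so the list is not read as a trait of the members. In gFBXW7_gKMT2D against gLuc none was called (background 0.0528%), none had an unadjusted p under 0.05 (background 3.61%), and 1 member, UBTF, lay apart on the low side (background 3.69%, with 3.28% higher and 6.97% either way). Fold changes were above 0 for 25 members and below 0 for 20, with a median of 0.02, beside 50% above 0 and a median of 0.00 over all genes. Without gFBXW7_gKMT2D library 2 this median was 0.13, with MRTO4, NHP2, NOP16, NOP56, NPM3 and SRM higher and MXD1 and POLR1A lower at an unadjusted p under 0.05, and without library 3 it was -0.07 with no member under 0.05. None was called in either case, and the share of all genes under 0.05 was not counted in these fits. The 3 comparisons share libraries with one another, so their values are set side by side and were not related to each other.

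The precision of these fits bounds what could have been seen. The median standard error of a member's log2 fold change was 0.18 in each comparison, and the range was 0.12 to 0.53. The 95% interval stayed within a 2-fold change either way for 40 of the 45 members in gFBXW7 against gLuc, 41 in gFBXW7_gKMT2D against gFBXW7 and 39 in gFBXW7_gKMT2D against gLuc. Over all tested genes the interval stayed within a 2-fold change for 79.4%, 80.9% and 78.1%. It stayed within a 1.5-fold change for 21, 27 and 26 members. Differences inside these intervals were not resolved with 3 libraries per group.

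**Figure D1:**
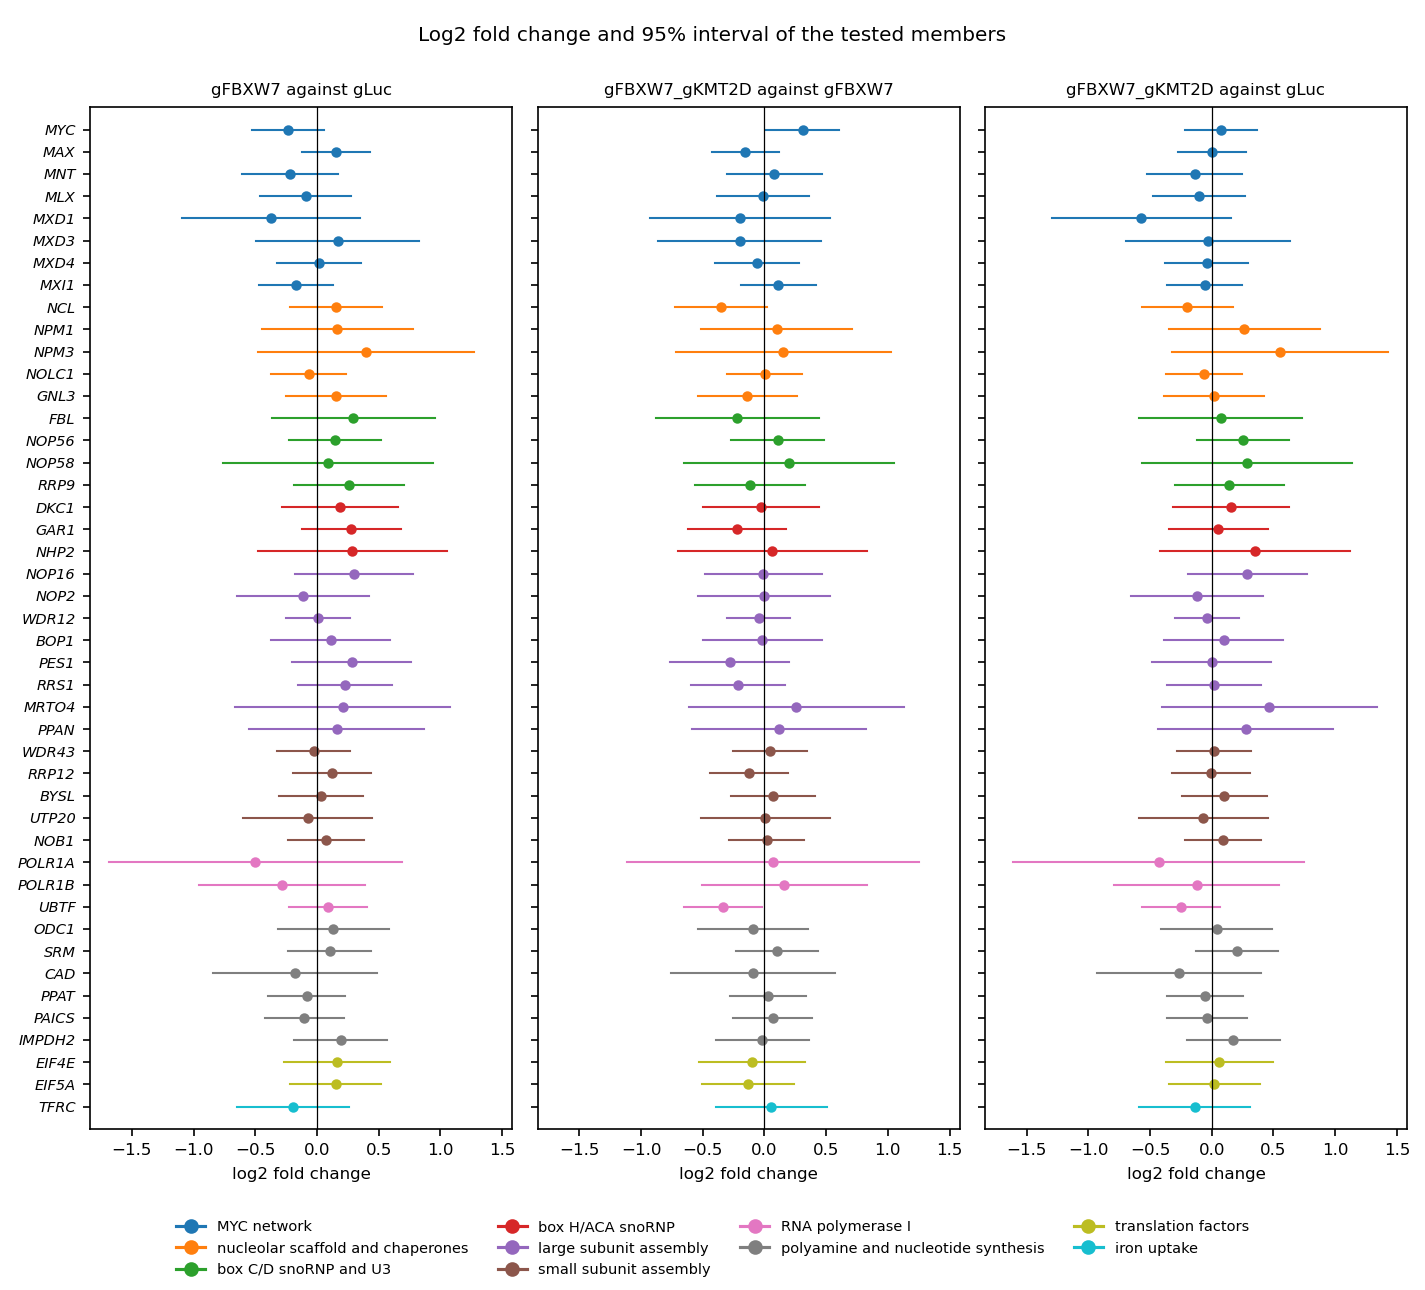
Log2 fold change (x axis) of each of the 45 tested members (y axis, in order of role) in the 3 comparisons; points are edgeR estimates, bars are 95% intervals and colours mark the roles. The bars cross 0 for every member except MYC and UBTF in gFBXW7_gKMT2D against gFBXW7, and the bar of POLR1A is the widest.

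MYC (chromosome 8, GRCh38 position 127735434 to 127741434) had 276, 291 and 294 CPM with gLuc, 212, 249.9 and 269 with gFBXW7, and 315, 285 and 306 with gFBXW7_gKMT2D. All 3 gFBXW7 libraries were below all 6 others, and the other groups overlapped. The group means were 287 ± 9.39, 244 ± 29.1 and 302 ± 15.7 CPM (SD, n = 3). The log2 fold change of MYC was -0.23 (SE 0.13, edgeR unadjusted p = 0.104, adjusted p = 0.956) in gFBXW7 against gLuc. In gFBXW7_gKMT2D against gFBXW7 it was 0.31 (SE 0.13, 95% interval 0.02 to 0.60, edgeR unadjusted p = 0.0406, adjusted p = 1.0), and in gFBXW7_gKMT2D against gLuc it was 0.07 (SE 0.13). Neither of the first pair passed the adjusted test, and a lower MYC transcript in gFBXW7 is a direction of the samples, not a called change. When any 1 library was left out, these stayed between -0.31 and -0.14 and between 0.22 and 0.39. The share of mitochondrial DNA transcripts was ordered the same way, with means of 1.23% in gFBXW7, 2.66% in gLuc and 3.11% in gFBXW7_gKMT2D, and its part in the MYC values was not tested. In bulk RNA, less transcript per cell and fewer cells with the transcript cannot be told apart.

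MAX, the obligate partner, had 122, 111 and 109 CPM with gLuc, 121, 132 and 128 with gFBXW7, and 115, 102 and 126 with gFBXW7_gKMT2D, and the 3 groups overlapped. MXI1, an antagonist that also pairs with MAX, had 27.7, 34.2 and 33.9 CPM with gLuc, 26.0, 27.7 and 31.4 with gFBXW7, and 28.6, 31.3 and 32.1 with gFBXW7_gKMT2D. Its groups overlapped as well. MXD1, another antagonist, was covered by 39 to 193 reads per library. It had 4.29, 8.08 and 8.82 CPM with gLuc, 5.08, 5.53 and 5.76 with gFBXW7, and 4.66, 6.55 and 2.80 with gFBXW7_gKMT2D. The lowest MXD1 value of all was in gFBXW7_gKMT2D library 3, and gLuc spanned the whole range of gFBXW7. Its log2 fold change was -0.37 (SE 0.32) in gFBXW7 against gLuc and -0.57 (SE 0.32, edgeR unadjusted p = 0.110) in gFBXW7_gKMT2D against gLuc, the lowest value of any member in that comparison. The first was -0.63 without gLuc library 1, -0.19 without gLuc library 3 and -0.030 with 1 surrogate variable. The second was -0.91 (edgeR unadjusted p = 0.0194, adjusted p = 0.264) without gFBXW7_gKMT2D library 2, -0.32 without its library 3 and -0.37 without gLuc library 3. MNT, MLX, MXD3 and MXD4 overlapped between the groups, and the 8 genes of the network ranged from -0.37 to 0.17, from -0.20 to 0.31 and from -0.57 to 0.07 in the 3 comparisons in the order above.

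Per length, the authors' RPKM (reads scaled to gene length and library total) gave MYC a median of 116 over the 9 libraries, 14th of the 46 members. MAX followed at 34.6, MLX at 17.6, MXI1 at 7.45, MXD3 at 7.36, MXD4 at 6.16, MNT at 2.47 and MXD1 at 0.985 RPKM. The paralogue MYCN, which is not among the 46, had a median of 3.17 RPKM (147 to 251 reads per library), and MYCL 0.119 RPKM (6 to 13 reads). MYC was therefore the most abundant of the 3 MYC family transcripts in every library, and MAX the most abundant of its partners and antagonists in the median. The members with the highest medians were NCL (911 RPKM), FBL (468), ODC1 (444), NPM1 (310) and NOP58 (186). FBL and ODC1 overlapped across libraries, with highest values of 602 and 523 RPKM.

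**Figure D2:**
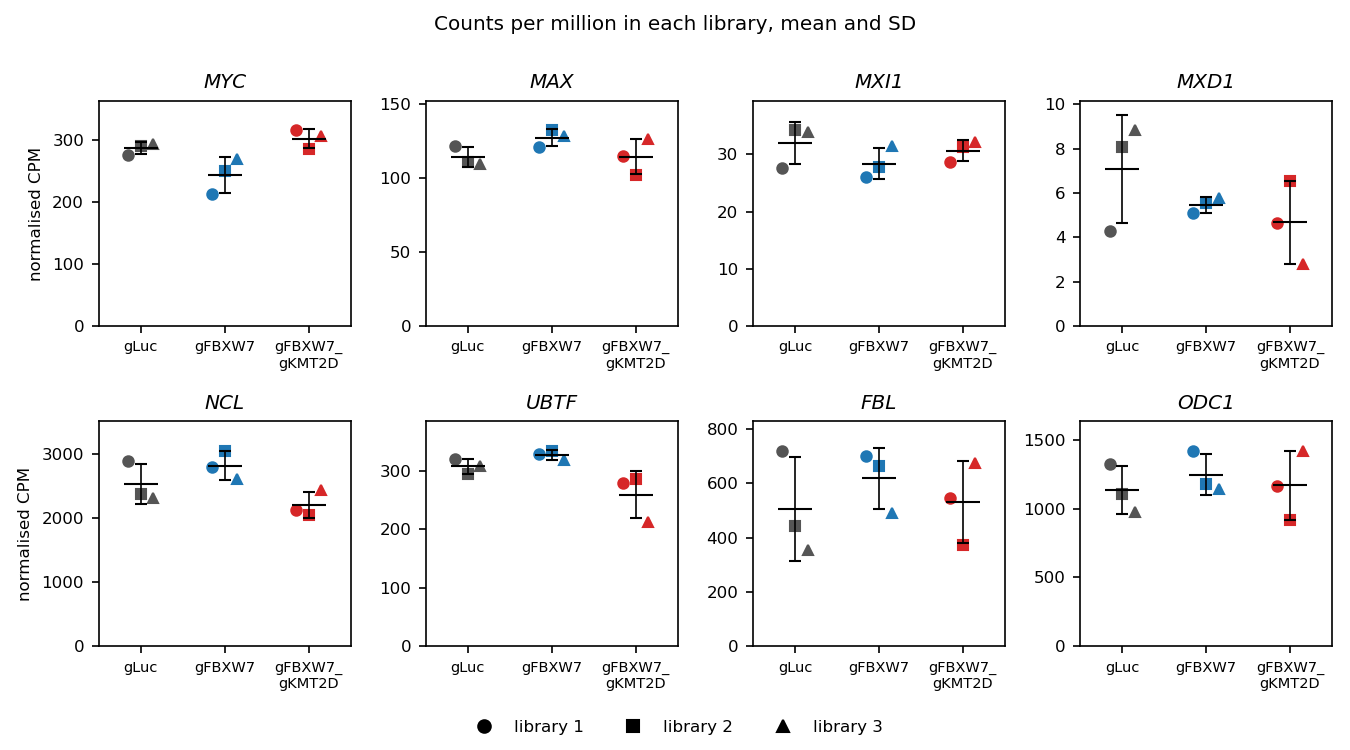
Normalised CPM (y axis, from 0) of 8 members in each library by group (x axis); marker shapes give the library number, the horizontal line is the group mean and the bar is the SD (n = 3). The 3 gFBXW7 libraries of MYC lie below all others, the 3 gFBXW7_gKMT2D libraries of UBTF lie lowest, and NCL is higher in every gFBXW7 library than in every gFBXW7_gKMT2D library.

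Among the nucleolar scaffold proteins and chaperones, NCL encodes nucleolin, which binds nascent ribosomal RNA. NCL had 2894, 2382 and 2319 CPM with gLuc, 2793, 3055 and 2611 with gFBXW7, and 2134, 2044 and 2442 with gFBXW7_gKMT2D. Every gFBXW7 library was above every gFBXW7_gKMT2D library, while gLuc overlapped both. The log2 fold change of NCL was -0.35 (SE 0.17, edgeR unadjusted p = 0.0598, adjusted p = 1.0) in gFBXW7_gKMT2D against gFBXW7, 0.16 (SE 0.17) in gFBXW7 against gLuc and -0.20 (SE 0.17) in gFBXW7_gKMT2D against gLuc. Against gLuc these values ran from 0.080 to 0.26 and from -0.28 to -0.092 with 1 library left out. NPM1 encodes nucleophosmin, a histone and ribosome chaperone, and had 1029, 816 and 685 CPM with gLuc, 1073, 864 and 895 with gFBXW7, and 876, 693 and 1469 with gFBXW7_gKMT2D. The highest and the second lowest NPM1 value both fell in gFBXW7_gKMT2D. NPM1 has processed pseudogenes, so its reads could be split by the counting.

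NPM3, a small chaperone of the same family, had 96.5, 64.3 and 45.7 CPM with gLuc, 111, 82.5 and 79.1 with gFBXW7, and 86.2, 52.6 and 164 with gFBXW7_gKMT2D. The values spanned 3.59-fold with full overlap of the groups. NPM3 had the highest log2 fold change of any member against gLuc, 0.40 (SE 0.39) in gFBXW7 and 0.55 (SE 0.39, edgeR unadjusted p = 0.190) in gFBXW7_gKMT2D. Without gFBXW7_gKMT2D library 3 the latter was 0.012, and without gLuc library 3 the former was 0.17. Without gLuc library 1 the value was 0.72 in gFBXW7 and 0.87 in gFBXW7_gKMT2D. GNL3, which encodes nucleostemin, and NOLC1, a chaperone of small nucleolar ribonucleoproteins (snoRNPs), overlapped between all groups.

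Box C/D snoRNPs guide the methylation of ribosomal RNA, with FBL as the methyltransferase and NOP56 and NOP58 as core proteins. FBL had 721, 441 and 355 CPM with gLuc, 701, 666 and 492 with gFBXW7, and 546, 375 and 676 with gFBXW7_gKMT2D. The 3 gFBXW7 libraries lay inside the range of gLuc, and the log2 fold change of FBL in gFBXW7 against gLuc was 0.29 (SE 0.30, edgeR unadjusted p = 0.346). It was 0.085 without gLuc library 3 and 0.64 (edgeR unadjusted p = 0.0437, adjusted p = 0.575) without gLuc library 1. NOP58 had 477, 366 and 298 CPM with gLuc, 385, 433 and 393 with gFBXW7, and 330, 247 and 812 with gFBXW7_gKMT2D. Both the lowest and the highest NOP58 library belonged to gFBXW7_gKMT2D. Its log2 fold change in gFBXW7_gKMT2D against gFBXW7 was 0.20 (SE 0.38) with all libraries and -0.48 without gFBXW7_gKMT2D library 3, a change of sign. RRP9, a protein of the U3 particle, and NOP56 overlapped between the groups.

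Box H/ACA snoRNPs convert uridines of ribosomal RNA to pseudouridine, with DKC1 (dyskerin) as the enzyme and NHP2 and GAR1 among its partners. DKC1 had 354, 292 and 264 CPM with gLuc, 376, 341 and 320.4 with gFBXW7, and 301, 262 and 453 with gFBXW7_gKMT2D. NHP2 had 159, 109.7 and 87.8 CPM with gLuc, 169, 139.5 and 127 with gFBXW7, and 137, 84.0 and 235 with gFBXW7_gKMT2D. In both genes library 2 of gFBXW7_gKMT2D was the lowest of all 9 and library 3 the highest, so all groups overlapped. For NHP2 the log2 fold change in gFBXW7_gKMT2D against gLuc was 0.35 (SE 0.34), and -0.11 without gFBXW7_gKMT2D library 3. GAR1 overlapped between the groups too.

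Of the 8 genes for assembly of the large subunit, PES1 and BOP1 encode proteins of 1 complex with WDR12, and MRTO4 a ribosome assembly factor of the nucleolus. PES1 had 294, 191 and 174 CPM with gLuc, 273, 287 and 240.0 with gFBXW7, and 232, 176 and 251 with gFBXW7_gKMT2D. The gFBXW7 and gFBXW7_gKMT2D libraries of PES1 overlapped only through library 3 of each, and the log2 fold change between them was -0.28 (SE 0.22, edgeR unadjusted p = 0.221), and -0.15 without gFBXW7_gKMT2D library 2. MRTO4 had 245, 143 and 129 CPM with gLuc, 211, 199.7 and 186 with gFBXW7, and 182, 127 and 405 with gFBXW7_gKMT2D. Its gFBXW7_gKMT2D library 3 was the highest of the 9 and library 2 the lowest. The log2 fold change of MRTO4 was 0.26 (SE 0.39) against gFBXW7 and 0.47 (SE 0.39) against gLuc, and without that library 3 it was -0.36 and -0.16.

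NOP16 had 45.3, 35.6 and 30.8 CPM with gLuc, 49.5, 44.3 and 43.4 with gFBXW7, and 44.98, 33.1 and 58.6 with gFBXW7_gKMT2D. Its gFBXW7 libraries overlapped gLuc through gLuc library 1 alone, and the log2 fold change in that comparison was 0.30 (SE 0.21, edgeR unadjusted p = 0.196). It was 0.17 without gLuc library 3 and 0.46 without gLuc library 1. NOP2, WDR12, BOP1, RRS1 and PPAN overlapped between all groups. PPAN values are uncertain, because 83.2% of its exonic bases in GENCODE also belong to the readthrough gene PPAN-P2RY11, which was listed at 0. The 5 genes for assembly of the small subunit (WDR43, RRP12, BYSL, UTP20 and NOB1) lay in a narrow band, with log2 fold changes of -0.08 to 0.12, -0.13 to 0.07 and -0.07 to 0.10 in the 3 comparisons in the order above.

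The RNA polymerase I genes encode the enzyme that transcribes the ribosomal RNA precursor (POLR1A and POLR1B, its largest subunits) and its upstream binding factor (UBTF). UBTF had 320.5, 295 and 308 CPM with gLuc, 328, 335 and 319 with gFBXW7, and 278, 286 and 213 with gFBXW7_gKMT2D. All 3 gFBXW7_gKMT2D libraries were below all 6 others. The means were 308 ± 12.8, 327 ± 8.04 and 259 ± 40.3 CPM (SD, n = 3), so most of the spread lay in gFBXW7_gKMT2D. The log2 fold change of UBTF was -0.34 (SE 0.14, edgeR unadjusted p = 0.0394, adjusted p = 1.0) in gFBXW7_gKMT2D against gFBXW7, -0.25 (SE 0.14, unadjusted p = 0.110) in gFBXW7_gKMT2D against gLuc and 0.09 (SE 0.14) in gFBXW7 against gLuc. Without gFBXW7_gKMT2D library 3, the lowest, the first of these was -0.21 (edgeR unadjusted p = 0.0721) and the second -0.12.

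POLR1A had the widest spread of all members, 6.31-fold. It had 26.9, 41.9 and 62.5 CPM with gLuc, 26.5, 35.2 and 31.2 with gFBXW7, and 25.6, 61.3 and 9.90 with gFBXW7_gKMT2D, from 138 to 1806 reads. The lowest value and the second highest fell in the same group. The log2 fold change of POLR1A was -0.50 (SE 0.53) in gFBXW7 against gLuc, the lowest of any member there, and -0.43 (SE 0.53) in gFBXW7_gKMT2D against gLuc. The second was -1.30 (edgeR unadjusted p = 0.0103, adjusted p = 0.264) without gFBXW7_gKMT2D library 2 and -0.0045 without library 3. The first was -0.16 without gLuc library 3 and -0.75 without gLuc library 1. POLR1B had 35.3, 49.3 and 60.1 CPM with gLuc, 34.5, 39.6 and 44.7 with gFBXW7, and 46.1, 61.3 and 25.1 with gFBXW7_gKMT2D. It too was lowest in gFBXW7_gKMT2D library 3. Its log2 fold change in gFBXW7 against gLuc was -0.28 (SE 0.30) with all libraries, -0.10 without gLuc library 3 and -0.47 without gLuc library 1.

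Of the metabolic members, ODC1 encodes the first enzyme of polyamine synthesis and CAD the enzyme of the first steps of pyrimidine synthesis. ODC1 had 1321, 1108 and 977 CPM with gLuc, 1415, 1179 and 1139.6 with gFBXW7, and 1164, 917 and 1421 with gFBXW7_gKMT2D. CAD had 107, 127 and 149 CPM with gLuc, 105, 121 and 113 with gFBXW7, and 117, 147 and 54.4 with gFBXW7_gKMT2D. ODC1 overlapped between all groups, and for CAD gFBXW7_gKMT2D library 3 stood below the 8 others. For CAD the log2 fold change in gFBXW7_gKMT2D against gLuc was -0.27 (SE 0.30), and 0.048 without that library. SRM (spermidine synthase), PPAT and PAICS (purine synthesis) and IMPDH2 (guanine nucleotide synthesis) overlapped in every comparison. The 6 genes ranged from -0.18 to 0.19, from -0.09 to 0.10 and from -0.27 to 0.20 on the log2 scale.

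EIF4E encodes the cap-binding translation factor and had 156, 147 and 133 CPM with gLuc, 154, 158 and 176 with gFBXW7, and 136, 118 and 202 with gFBXW7_gKMT2D. TFRC, the transferrin receptor, had 288, 371 and 431 CPM with gLuc, 307, 308 and 338 with gFBXW7, and 313, 416 and 261 with gFBXW7_gKMT2D. The groups overlapped for both, and for EIF5A. EIF4A1, an RNA helicase of translation initiation, was listed at 0 in all 9 libraries, which allows up to 3 counts per library, or 0.111 to 0.184 CPM. Its close relatives EIF4A2 and EIF4A3 had medians of 114 and 95.1 RPKM. In GENCODE 83.5% of the exonic bases of EIF4A1 also belong to the readthrough gene SENP3-EIF4A1, which held 0 to 2 reads per library, and whether the counting dropped its reads was not tested. EIF4A1 was therefore treated as not measured, and no fold change is given.

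Single libraries held most of the extreme values. The highest or the lowest of the 9 values fell in gFBXW7_gKMT2D library 3 for 30 of the 45 members (66.7%, beside 63.9% of all tested genes). It was the highest library for 19 members, with a median gene length of 2075 bases, and the lowest for 11, with a median of 5504 bases. The lowest values of 15 members were in gFBXW7_gKMT2D library 2 and those of 13 in gLuc library 3. Highest and lowest values together fell in gFBXW7_gKMT2D library 2 for 42.2% of members, beside 28.4% of all tested genes. For gLuc library 3 these shares were 46.7% and 38.5%. A member's highest CPM was 1.57 times its lowest in the median, beside 1.79 times for all tested genes. It was over 2 times the lowest for 12 of the 45 members, beside 39% of all tested genes.

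The same libraries stood out for short and long genes at large. Set against the gLuc mean on the log2 CPM scale, the median member was at 0.18, -0.03 and -0.13 in the gLuc libraries, 0.11, 0.12 and 0.05 in gFBXW7, and 0.04, -0.14 and 0.22 in gFBXW7_gKMT2D. The shortest 25% of all tested genes was at 0.22, -0.03 and -0.19, then 0.23, 0.14 and 0.12, then 0.17, -0.17 and 0.41. The longest 25% was at -0.19, 0.02 and 0.18, then -0.17, -0.10 and -0.08, then -0.14, 0.14 and -0.29. The members thus lay high where short genes lay high and long genes low. Several roles differed by library: in gFBXW7_gKMT2D library 3 the box H/ACA genes had a median of 0.59 and the box C/D genes 0.52, while the RNA polymerase I genes had -0.91. In gFBXW7_gKMT2D library 2 these medians were -0.29, -0.31 and 0.38. Not every role median turned between libraries 3 and 2 of gFBXW7_gKMT2D. The MYC network was at -0.022 and -0.031, and polyamine and nucleotide synthesis at 0.066 and 0.019. Within both roles single members moved in opposite directions. MXD3 had 30.9 CPM in library 3 and 15.3 in library 2, and MXD1 2.80 and 6.55. ODC1 had 1421 and 917 CPM, and CAD 54.4 and 147. UBTF was below the gLuc libraries in both.

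**Figure D3:**
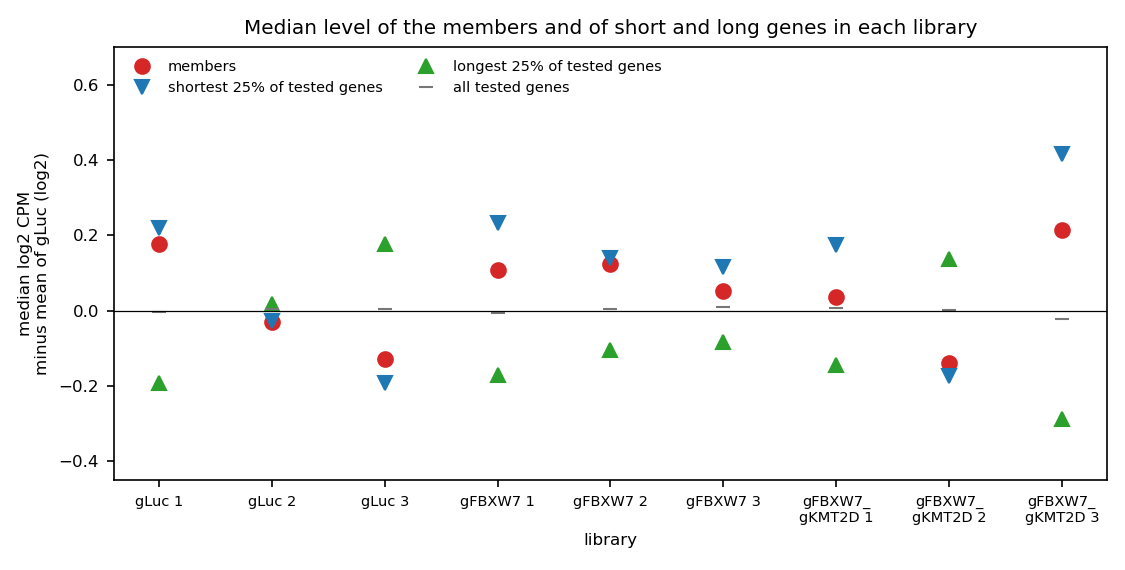
Median of log2 CPM minus the gLuc mean (y axis, log2 units) in each of the 9 libraries (x axis) for the tested members, for the shortest and the longest 25% of tested genes, and for all tested genes. The members lie highest in gFBXW7_gKMT2D library 3 (0.22) and lowest in gFBXW7_gKMT2D library 2 (-0.14), on the same side of 0 as the short genes in every library.

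Across the 45 members the fold change was lower the longer the gene in both comparisons with gLuc. Spearman's rho of log2 fold change and gene length was -0.63 in gFBXW7 against gLuc, -0.10 in gFBXW7_gKMT2D against gFBXW7 and -0.75 in gFBXW7_gKMT2D against gLuc. Over all 13262 genes it was -0.42, 0.08 and -0.30. These are descriptions across genes of the same libraries, which are not independent replicates. MYC and NCL, of similar length (2366 and 2717 bases), were the highest and the lowest member in gFBXW7_gKMT2D against gFBXW7. With the length trend of each library removed, the log2 fold change of MYC was -0.32 (edgeR unadjusted p = 0.0350, adjusted p = 0.993) in gFBXW7 against gLuc and 0.34 (unadjusted p = 0.0267, adjusted p = 0.841) in gFBXW7_gKMT2D against gFBXW7, and NCL was at -0.32 and UBTF at -0.34 in the latter. The median member was then at 0.06 in gFBXW7 against gLuc. No member was called. Whether RNA quality took part in the length relation was not tested.

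**Figure D4:**
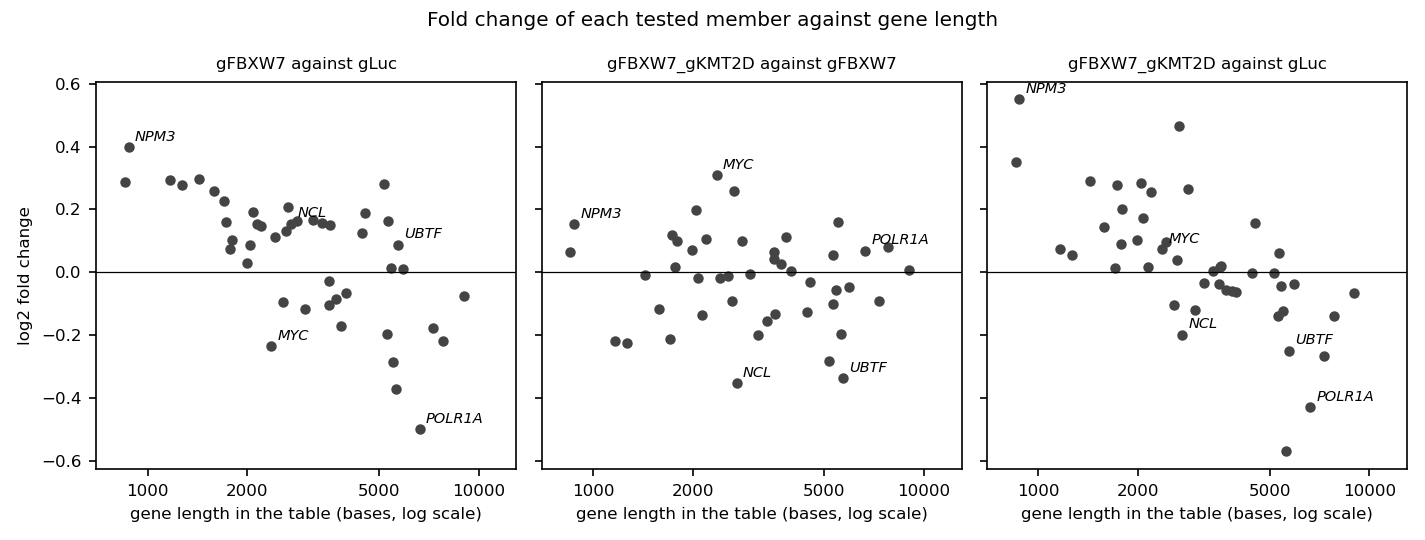
Log2 fold change (y axis) of each of the 45 tested members against its gene length in the table (x axis, bases, log scale) in the 3 comparisons. Short members such as NPM3 lie above 0 and long ones such as POLR1A below 0 in the comparisons with gLuc (rho -0.63 and -0.75), and no such slope is seen in gFBXW7_gKMT2D against gFBXW7 (rho -0.10).

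All 46 genes together took 1.19 ± 0.069% of the counts in gLuc, 1.25 ± 0.0312% in gFBXW7 and 1.14 ± 0.0377% in gFBXW7_gKMT2D (SD, n = 3). The gFBXW7 libraries were all above the gFBXW7_gKMT2D libraries, a difference of -0.11 percentage points. Against gLuc the differences were 0.062 for gFBXW7 and -0.046 for gFBXW7_gKMT2D, and both overlapped with gLuc. The sum is given as a description only, since the genes were chosen together, and abundant transcripts such as NCL and ODC1 weigh most in it. With ribosomal protein and mitochondrial transcripts taken out of the total, the first difference was -0.082 and the groups overlapped.

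In the further lists for MYC cofactors and turnover (19 tested), small subunit assembly (39), large subunit assembly (45), RNA polymerases I and III (25), nucleotide and polyamine synthesis (28) and translation factors (41), no gene was called in any comparison. EIF6, which keeps the large subunit from joining too early, had a log2 fold change of 0.48 (edgeR unadjusted p = 0.0291, adjusted p = 0.902) in gFBXW7_gKMT2D against gLuc. BMS1, a GTPase of small subunit assembly, was at -0.23 (unadjusted p = 0.0650) in gFBXW7_gKMT2D against gFBXW7. In the order of comparisons above, the median log2 fold change was -0.09, 0.04 and -0.08 for MYC cofactors and turnover, with 6, 13 and 6 of 19 genes above 0. It was 0.11, 0.01 and 0.09 for translation factors, with 33, 22 and 31 of 41 above 0. Small subunit assembly had 0.03, -0.03 and -0.02 and large subunit assembly 0.07, 0.03 and 0.09. RNA polymerases I and III had 0.07, -0.02 and -0.00, and nucleotide and polyamine synthesis 0.05, -0.06 and -0.05. Of 76 tested cytosolic ribosomal protein genes, 75, 69 and 76 had a fold change above 0, beside 49.3%, 54.6% and 50% of all genes. Their medians were 0.24, 0.23 and 0.49. The edgeR unadjusted p was under 0.05 on the high side for 12 of the 76 in gFBXW7_gKMT2D against gLuc, beside 284 of 13262 genes. In gFBXW7_gKMT2D against gFBXW7 this held for 3, beside 305 of 13262 genes. None was called, and the part of transcript length in these values was not tested.

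Genes that MYC is known to repress were looked at as the counterpart. Of the 13 tested, none was called in any comparison. A fold change above 0 was seen for 9, 5 and 7, beside 49.3%, 54.6% and 50% of all tested genes. The libraries lay apart on the high side for 2, 1 and 2 of the 13 (background 4.37%, 4.35% and 3.28%). On the low side they lay apart for 0 in each comparison. CDKN1A and BTG1 are named because each had the smallest p of the list in a comparison, so they were picked from it. CDKN1A, the cell cycle inhibitor p21, had the smallest p in gFBXW7 against gLuc, with a log2 fold change of 0.65 (SE 0.26, edgeR unadjusted p = 0.0320, adjusted p = 0.956). It was covered by 21 to 81 reads per library, with 1.48, 1.19 and 1.32 CPM with gLuc, 2.05, 2.38 and 1.83 with gFBXW7, and 3.54, 2.75 and 1.94 with gFBXW7_gKMT2D. All 6 libraries with the RNA against FBXW7 were above the 3 gLuc libraries. In gFBXW7_gKMT2D against gLuc its value was 1.05 (SE 0.25, 95% interval 0.49 to 1.61, edgeR unadjusted p = 0.00204, adjusted p = 0.774). BTG1, an antiproliferative gene, had 125, 138 and 117 CPM with gLuc, 139, 129.7 and 136 with gFBXW7, and 191, 166 and 197 with gFBXW7_gKMT2D. The gFBXW7_gKMT2D libraries of BTG1 were above all others, with log2 fold changes of 0.46 (SE 0.12, edgeR adjusted p = 0.812) against gFBXW7 and 0.55 (SE 0.12, adjusted p = 0.669) against gLuc. Neither passed this test, while the difference from gLuc passed with DESeq2 and both passed with 1 surrogate variable.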

How the data were processed

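Messenger RNA of 9 OPM-1 libraries was sequenced, 3 for each of 3 groups taken from the labels. Per the labels' protocols, libraries were strand-specific (dUTP). The submitters' processing notes name build GRCh38 and, without versions, featureCounts, STAR, Trimmomatic and DESeq2. The table deposited by the authors holds whole-number counts, not normalised, and RPKM values, which were recomputed from count, length and library total to within a relative difference of 8.5e-07. An unnamed total row was left out. The standard errors and intervals given with fold changes come from the edgeR fit.

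Counts were tested in R 4.3.3 with edgeR 4.0.16 (filterByExpr, TMM, quasi-likelihood, group as the only term, 6 residual degrees of freedom). CPM uses TMM-scaled library sizes, except for the cell type markers and the upper limit for EIF4A1, which use plain library totals. Coordinates are GENCODE v29 (GRCh38), 1-based. Members, lists and tests were chosen with earlier results of these data known. Each library's value was given for 14 members set by role, for those with an unadjusted p under 0.05, and for the 3 highest and 3 lowest fold changes per comparison. Fold changes are given for MYC, NCL, UBTF and those extremes. Alternatives used DESeq2 1.42.0, limma 3.58.1 (log2 of RPKM plus 1) and sva 3.50.0. Scripts were tested on simulated data. There the adjusted test called 43.2%, 45.6% and 40.9% of the genes given a 2-fold change, in the order of comparisons above. With a 3-fold change it called 84.5%, 85.4% and 84.8%. Figures used Python 3.11.15 and matplotlib 3.10.9.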

Additional observations from a re-analysis of the deposited data

How the results depend on the processing

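No member was called in any of the 3 comparisons with all libraries, nor under any of these settings: DESeq2 size factors, upper quartile scaling, no filter, the DESeq2 Wald test, limma on log2(RPKM + 1), the 6 compared libraries alone, 1 surrogate variable, the length trend removed, and each library left out. A model with 1 surrogate variable and without gFBXW7_gKMT2D library 3 was added after seeing the data. In it 1 member was called, NOP58 (log2 fold change -0.35, edgeR adjusted p = 0.0454, gFBXW7_gKMT2D against gLuc), beside 220 of 13455 tested genes. In the main fit the NOP58 value of that comparison had the other sign, 0.28 (SE 0.38). With 1 surrogate variable and all libraries the smallest adjusted p of a member was 0.0799 (NCL, gFBXW7_gKMT2D against gFBXW7). Of 30 fold changes given under Results, 22 kept their sign under every alternative, MYC, NCL and UBTF among them in all comparisons. BTG1, outside the members, was called with 1 surrogate variable (adjusted p = 0.0211 against gFBXW7 and 0.023 against gLuc) and with DESeq2 against gLuc (adjusted p = 0.0103), and with the added model BTG1 in both and EIF6 and CDKN1A against gLuc.

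Over all genes, the calls in gFBXW7 against gLuc were 0, and 1 with DESeq2 and 4 with the added model. In gFBXW7_gKMT2D against gFBXW7 they were 8, and 5 with upper quartile scaling, 33 without a filter, 32 with DESeq2, 3 with limma, 0 with the 6 libraries alone, 126 with 1 surrogate variable, 5 with the length trend removed, 149 with the added model, and 0 to 7 with a library left out (0 without any 1 of the gFBXW7 libraries). In gFBXW7_gKMT2D against gLuc they were 7, and 21 without a filter, 24 with DESeq2, 4 with limma, 2 with the 6 libraries alone, 55 with 1 surrogate variable, 220 with the added model, and 2 to 8 with a library left out. With limma on RPKM the share of all genes above 0 was 42.6%, 43.4% and 38.6%, beside 49.3%, 54.6% and 50% in edgeR, and the median member was at 0.08, -0.07 and -0.05. Under 1 surrogate variable 1 member was higher and 8 lower at an unadjusted p under 0.05 in gFBXW7_gKMT2D against gFBXW7. Calls over all genes rose from 8 to 126 in that fit, and the share of all genes under 0.05 was not counted.

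Among those 30 fold changes, signs turned as follows. With 1 surrogate variable, POLR1A was 0.10 and POLR1B 0.025 in gFBXW7 against gLuc, NOP58 -0.048 in gFBXW7_gKMT2D against gFBXW7, and MRTO4 -0.055 and NHP2 -0.093 in gFBXW7_gKMT2D against gLuc. With the added model, POLR1A was 0.063 and FBL -0.0098 in the first, MRTO4 -0.0098 and NOP58 -0.25 in the second, and CAD 0.020, MRTO4 -0.063 and NHP2 -0.040 in the third. With limma, NOP58 was -0.026 in the second. With a library left out, MRTO4 ran from -0.36 to 0.56 and NOP58 from -0.48 to 0.50 in the second, and CAD from -0.58 to 0.048, MRTO4 from -0.16 to 0.81 and NHP2 from -0.11 to 0.64 in the third. The end with the other sign came in each case without gFBXW7_gKMT2D library 3. The median member ran from 0.020 to 0.20, from -0.11 to 0.019 and from -0.07 to 0.13 in the 3 comparisons, and in the first it was 0.0027 with the added model. The cause of these turns was not tested.

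With the replicate number as a block, 0, 2 and 2 genes and no member were called in the 3 comparisons, and MYC was at -0.24, 0.31 and 0.08. Same-numbered libraries correlated at -0.586 to 0.454 and not every library correlated best with its own number, so the numbers were not treated as a pairing.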
